A study of Rattus norvegicus with 12 samples.

Results

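The expression of 14217 annotated genes in rat liver was compared between 3 arrays of the hepatocarcinoma stage and 3 arrays of the cirrhosis stage of a chemical carcinogenesis model. These 6 arrays were all the members of both stages among 12 arrays in the series, chosen by the sample group in the labels and not by any measured value. The other 6 arrays, 3 of normal controls and 3 of the hepatitis stage, entered the fit to estimate the spread of each gene, and their levels are given as a reference where they help to read the difference.

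All animals were adult male Sprague-Dawley rats. The cirrhosis and hepatocarcinoma (HCC) groups both received diethylnitrosamine (DEN), a carcinogen that hepatocytes activate to a DNA-alkylating agent, in weekly intraperitoneal doses of 70 mg/kg over 10 weeks, while distilled water was given to controls. The labels describe the hepatitis group as a DEN group too. It was taken at week 5, the cirrhosis group at weeks 13 to 14 and the HCC group at weeks 23 to 24, so the groups compared differed in time since injection and in age as well as in stage. The labels do not say whether weeks were counted from the first or from the last injection. At each of these times 12 rats were killed, and the labels do not say which of them, or how many, gave RNA for the 3 arrays of a group. The p-values therefore measure the spread between these arrays, which may be technical. The series description speaks of HCC tissue for the last group and of liver for the other groups, whereas the tissue label is liver for all 12 arrays. The labels name no genetic alteration in any group.

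Values were linear array intensities, 1 per probe set, from Affymetrix Rat 230 2.0 arrays. Medians per array were 28.7 to 30.9. The 3 cirrhosis arrays resembled each other closely, with correlations over genes of 0.996 to 0.997 and a median standard deviation per gene of 0.0724 on the log2 scale. The HCC arrays were far more variable, with correlations of 0.937 to 0.959 and a median standard deviation of 0.207. HCC replicate 2 lay nearer to the cirrhosis arrays than the other HCC arrays did in many of the gene groups below. Its value is therefore given separately for most genes described with intensities and for many lists. The 3′ to 5′ signal of the control transcripts also differed between the stages. The log2 ratio of the Gapdh probe sets was 0.42 to 0.56 on the cirrhosis arrays and 1.36, 2.46 and 3.20 on HCC replicates 1, 2 and 3, and that of beta actin was 2.27 to 2.49 against 3.90, 4.51 and 5.14. The hexokinase ratio, from dim probe sets, went the other way, at 0.81 to 0.97 against 0.51 to 0.65. A high ratio is known to accompany shortened RNA, and the part of this difference in the results below was not tested. The liver label was borne out by albumin, whose intensity was 14857, 14296 and 14523 on the cirrhosis arrays and 14835, 14681 and 12686 on the HCC arrays. Except on HCC replicate 3, with a highest intensity of 13675, these were the highest intensities of the arrays. Whether they reached the top of the scale, where a difference would not show, was not tested. In bulk tissue, fewer cells of a type and less RNA per cell cannot be told apart.

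Hepatocellular carcinoma arises from hepatocytes, mostly in livers with long-standing injury and scarring. Adult hepatocytes make most plasma proteins, detoxify foreign compounds, synthesise bile acids and urea, and burn fatty acids, and they rarely divide. Tumours of this cell type are known to lose parts of this programme, to re-express genes of the fetal liver such as alpha-fetoprotein, and to cycle.

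The stages differed widely. In a limma fit of the 12 arrays, 2754 genes (19.4% of those tested) were higher and 2508 genes (17.6%) were lower in HCC than in cirrhosis at a Benjamini-Hochberg adjusted p below 0.05, together 37% of all genes. A change of at least 2-fold was found for 700 of the higher genes (4.92% of all tested) and 968 of the lower ones (6.81%). The median difference over all genes was 0.0022 on the log2 scale. All 3 HCC arrays lay above all 3 cirrhosis arrays for 3421 genes (24.1%) and below them for 3257 (22.9%). Because the fit of 12 arrays assumes 1 spread for all groups while HCC varied most, the calls were also made from the 6 arrays alone, which gave 1765 higher and 1727 lower genes, of which 1731 and 1665 were among those above. Without HCC replicate 2 the counts were 3353 and 2830. Each difference below is given as HCC minus cirrhosis in log2(intensity + 16) with its standard error. That error comes from the fit of 12 arrays with its 1 spread per gene. It can therefore be too small for genes that varied more in HCC than in the other groups. It can likewise be too large for genes that varied more in the control or hepatitis group. The words "rose" and "fell" refer to a gene past the threshold in the fit of 12 arrays. Where 3 intensities stand against 3 others, they are those of replicates 1, 2 and 3 of cirrhosis and then of HCC, and a value with its error in parentheses is the log2 difference. Counts of list members are to be read against the 19.4% higher and 17.6% lower among all genes. The lists were chosen with earlier results of these data known. Where leaving out 1 array moved a list count by over 1.5 times the count is given, except counts that stayed at 2 or fewer, which moved in 24 of the 58 lists. A list shift is the mean log2 level of the list on an HCC array minus the mean of the cirrhosis arrays.

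**Figure D1:**
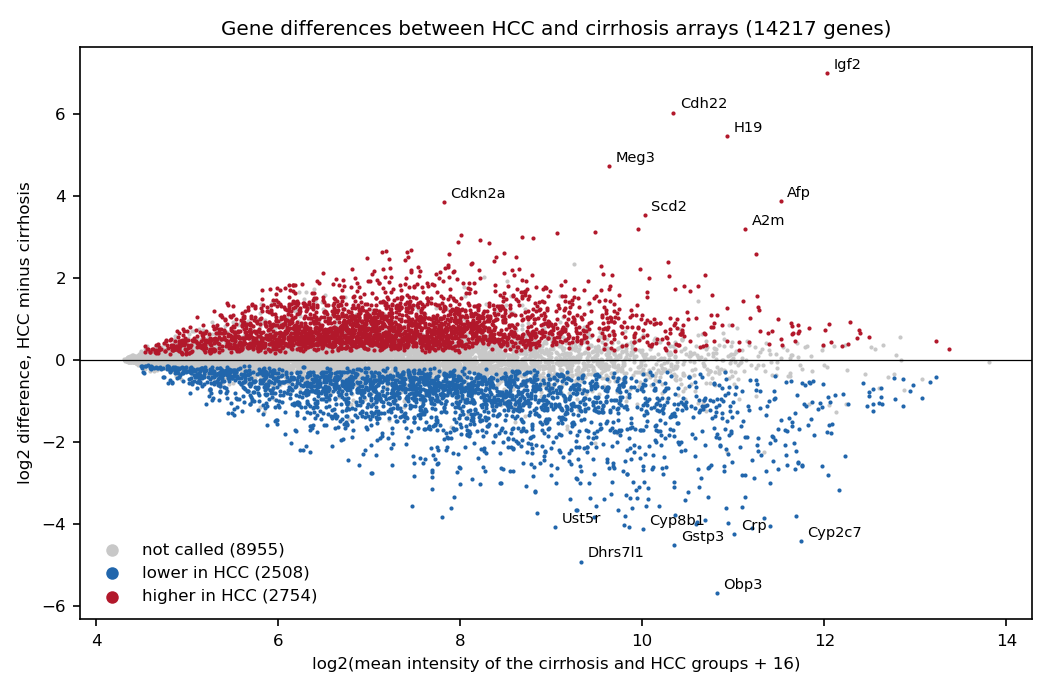
Log2 difference between HCC and cirrhosis for each of the 14217 genes (vertical axis, log2 units) against its level (horizontal axis, log2 of the mean intensity of both groups plus 16). Red points are the 2754 higher genes, blue points the 2508 lower genes and grey points genes past no threshold. Igf2 at 7.00 and Obp3 at -5.69 mark the ends of the range, and differences of more than 4 units occur in both directions.

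Igf2, H19, Meg3 and Afp, known from the fetal liver or from imprinted gene clusters, were among the 15 largest rises, and so was the cadherin Cdh22, described further on. Igf2, the fetal insulin-like growth factor, had intensities of 32.9, 42.4 and 33.9 on the cirrhosis arrays and 9839, 2343 and 12790 on HCC replicates 1 to 3, a log2 difference of 7.00 ± 0.49 (limma adjusted p = 2.2e-05). The groups were far apart, with the lowest HCC array still at 2343, and the controls lay at 41.0 to 47.1. The array has 4 probe sets for Igf2, of which 1 passed the threshold, and the other 3 were dim on all 6 arrays of both stages, at 12.8 to 25.6. H19, the maternally expressed non-coding RNA next to Igf2, rose from 70.0, 69.3 and 69.0 to 4041, 3004 and 4388, a log2 difference of 5.47 ± 0.38 (adjusted p = 2.2e-05). Its control intensities were 1169.9, 392 and 366, above cirrhosis and below every HCC array. Meg3, a maternally expressed non-coding RNA of another imprinted cluster, was 28.8, 30.4 and 30.2 in cirrhosis and 1588, 406 and 2589 in HCC (4.72 ± 0.64, adjusted p = 0.00044). Afp, alpha-fetoprotein, was 199, 250.2 and 198 in cirrhosis and 9199, 576 and 7098 in HCC (3.88 ± 0.82, adjusted p = 0.0048). Replicate 2 was by far the lowest HCC array for Afp but remained above every cirrhosis array.

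**Figure D2:**
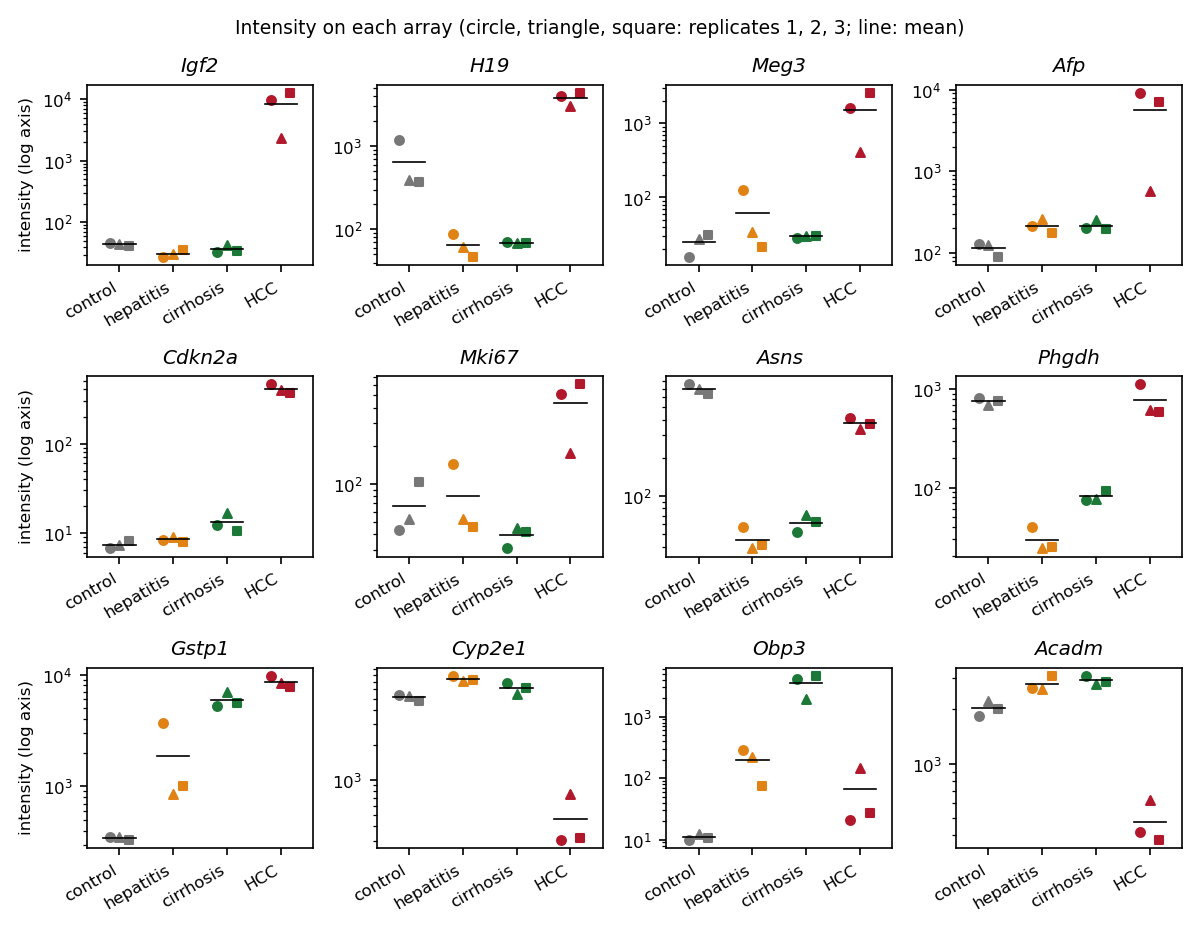
Intensity (vertical axes, logarithmic, each panel with its own range) of 12 genes on each of the 12 arrays by group. Circles, triangles and squares are replicates 1, 2 and 3, and lines are group means. Igf2, H19, Meg3, Afp and Cdkn2a separate the HCC arrays from all others, Asns and Phgdh are high in control and HCC, and Obp3 is high in cirrhosis.

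Of the 26 measured oncofetal and tumour markers, 8 rose (30.8%) and 1 fell (3.85%), with a median difference of 0.72. The called share was 34.6%, against 37% of all genes. The list shift was 2.07, 0.38 and 0.95 for HCC replicates 1, 2 and 3. The count of higher genes was 14 without HCC replicate 2, and 5 in the fit of 6 arrays, without cirrhosis replicate 1 or without cirrhosis replicate 3. Beyond Igf2, H19 and Afp, the rises included Golm1, a Golgi membrane protein used as a serum marker, from 159, 175 and 148 to 999, 282 and 438 (1.55 ± 0.37), and Sall4, a fetal stem cell transcription factor, from 15.6, 13.0 and 15.5 to 79.0, 25.4 and 52.4 (1.07 ± 0.25). The member that fell was Scd, a stearoyl-CoA desaturase, at 946, 2801 and 2766 against 268, 929 and 41.0 (-2.98 ± 0.87). Scd did not pass in the fit of 6 arrays (adjusted p = 0.099) or without cirrhosis replicate 2 (adjusted p = 0.075) or cirrhosis replicate 3 (adjusted p = 0.074). Golm1 did not pass in the fit of 6 arrays (adjusted p = 0.054). Sall4 did not pass in the fit of 6 arrays (adjusted p = 0.051). The paralogue Scd2 went the other way, from 145, 172 and 109 to 2832, 1855 and 1069 (3.53 ± 0.40, adjusted p = 0.00016). Several classical markers did not pass the test. Gpc3, the oncofetal proteoglycan, was 1705, 39.7 and 193 on the HCC arrays against 53.3, 59.7 and 55.5 in cirrhosis (adjusted p = 0.14), so it was high on replicate 1, moderate on replicate 3 and below cirrhosis on replicate 2. Krt19, a keratin of bile ducts and progenitor cells, followed the same order, with 2420.2, 59.1 and 343 against 95.6, 135 and 141 (adjusted p = 0.26). Gstp1, the placental glutathione transferase that marks preneoplastic foci in rat liver, was already 5276, 6919 and 5519 in cirrhosis, against 331 to 354 in control, and 9755, 8430.2 and 7696 in HCC (log2 difference 0.55 ± 0.44, adjusted p = 0.36). All 3 HCC arrays exceeded all cirrhosis arrays for Gstp1, and it passed in the fit of 6 arrays alone (adjusted p = 0.042). Ggt1, another focus marker, was 115, 176 and 108 against 532, 104 and 171 (adjusted p = 0.33), and Spp1, osteopontin, was 59.3, 64.2 and 49.7 against 198, 49.7 and 66.5 (adjusted p = 0.42).

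Other genes among the 15 largest rises came from varied functions. Cdh22, a cadherin, was 19.8, 16.4 and 18.6 in cirrhosis and 3371, 993 and 3280.3 in HCC (6.03 ± 0.84). Hepatitis replicate 1 also reached 376, and 1 of the 2 Cdh22 probe sets passed, the other lying at 13.3 to 20.5 on the arrays of both stages. Gucy2c, the guanylate cyclase receptor of the intestine, rose from 33.2, 32.9 and 37.3 to 692, 192 and 461 (3.03 ± 0.45). Taf1d, a subunit of the RNA polymerase I initiation complex, rose from 162, 151 and 150.4 to 1171, 943 and 3285 (3.19 ± 0.37). Morc4, a chromatin-associated ATPase, rose from 40.9, 37.5 and 34.0 to 1076, 146 and 363 (2.93 ± 0.52). Hdc, histidine decarboxylase, was 56.9, 103 and 38.4 against 1448, 130 and 1339 (3.09 ± 0.86), and Saa3, a serum amyloid A protein, was 21.1, 22.6 and 18.4 against 2107, 61.4 and 139.9 (3.01 ± 0.95). Both depended on the arrays used, as Saa3 was high on replicate 1 and Hdc on replicates 1 and 3. Hdc did not pass in the fit of 6 arrays (adjusted p = 0.067) or without cirrhosis replicate 1 (adjusted p = 0.053), cirrhosis replicate 3 (adjusted p = 0.064), HCC replicate 1 (adjusted p = 0.058) or HCC replicate 3 (adjusted p = 0.066). Saa3 did not pass in the fit of 6 arrays (adjusted p = 0.13) or without cirrhosis replicate 1 (adjusted p = 0.076), cirrhosis replicate 2 (adjusted p = 0.074) or cirrhosis replicate 3 (adjusted p = 0.081).

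The gene with the smallest adjusted p was Cdkn2a, which encodes the CDK4/6 inhibitor p16 and the MDM2 inhibitor ARF. Its intensities were 12.5, 16.8 and 10.5 in cirrhosis and 458, 399 and 361 in HCC, a log2 difference of 3.85 ± 0.09 (limma adjusted p = 4.3e-08). All 3 HCC arrays were alike, and controls lay at 6.80 to 8.21. The neighbouring Cdkn2b, for the related inhibitor p15, did not pass, at 22.8, 19.8 and 21.9 against 20.3, 21.7 and 37.6 (adjusted p = 0.38). Among 18 measured p53 targets 2 rose and 6 fell, with a median difference of -0.16, and the count of falls was 3 without cirrhosis replicate 3. Falls included Phlda3, an inhibitor of Akt signalling, from 102, 98.8 and 97.9 to 34.2, 39.9 and 32.3 (-1.17 ± 0.13), Sesn1, a stress-induced regulator of mTORC1 (-1.09 ± 0.09), and Ei24, an endoplasmic reticulum protein (-1.36 ± 0.13). The rises were Mdm2, the ubiquitin ligase of p53, from 184, 173 and 156 to 239, 343 and 318 (0.74 ± 0.18), and Ddit4, a stress-induced mTORC1 inhibitor, from 82.5, 99.3 and 76.4 to 237, 223 and 242 (1.30 ± 0.22). Cdkn1a, for the inhibitor p21, was 244, 197 and 205 against 255, 315 and 419 and did not pass (adjusted p = 0.2).

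Genes of the cell cycle rose together. Of 37 measured genes of mitosis and cyclins, 33 rose and 0 fell, 29 of them at least 2-fold, with a median difference of 1.45 against 0.0022 over all genes. Mki67, the proliferation marker Ki-67, was 30.9, 45.0 and 41.5 in cirrhosis and 513, 175 and 612 in HCC (2.86 ± 0.49, adjusted p = 0.0015). Its control intensities of 43.3, 52.7 and 103 lay above cirrhosis on 2 of 3 arrays and below every HCC array. Ccna2, cyclin A2, was 23.5, 30.4 and 24.4 against 332, 103 and 418 (2.64 ± 0.46). Cdc20, an activator of the anaphase-promoting complex, was 78.3, 88.9 and 75.2 against 471, 298 and 874 (2.41 ± 0.34). Ccne1, cyclin E1 of the G1/S transition, was 27.1, 33.5 and 28.9 against 188, 97.5 and 429 (2.25 ± 0.39). Cdk1, the mitotic kinase, was 44.5, 72.8 and 58.2 against 505, 169 and 418 (2.24 ± 0.44), and Top2a, the topoisomerase of dividing cells, was 29.8, 49.4 and 43.8 against 317, 120.4 and 251 (2.03 ± 0.34). For each of these 6 genes replicate 2 was the lowest HCC array. The list shift was 1.90, 0.80 and 1.75 for HCC replicates 1, 2 and 3. Ccnd1, cyclin D1, did not pass, at 467, 461 and 428 against 419, 361 and 291 (adjusted p = 0.31).

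DNA replication genes behaved likewise, with 23 of 28 measured genes higher and 0 lower, a median difference of 1.24 and array shifts of 1.40, 0.58 and 1.32. Mcm4, a subunit of the replicative helicase, rose from 76.9, 73.1 and 62.5 to 658, 256 and 445 (2.34 ± 0.31), and its partners Mcm5 and Mcm6 rose by 1.85 ± 0.30 and 1.86 ± 0.49. Cdt1, which loads that helicase at origins, rose from 12.0, 14.6 and 12.8 to 114, 42.6 and 126 (1.81 ± 0.31).

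Since the mitotic and replication genes rose as blocks, the promoters of some of them are shown with motifs known from cell cycle genes. The CHR element (TTTGAA or TTCGAA) and the CCAAT box are bound in mitotic promoters by the DREAM or MuvB complex and by NF-Y, and E2F factors bind TTTGGCGC or TTTCGCGC in replication promoters. These letters were searched on both strands in the 250 bases before the annotated start. The sequences are RefSeq's for the GRCr8 assembly, in the direction of the gene, with matches on either strand in capitals, so that overlapping matches run together. The capitals mark the CHR element and the CCAAT box in the mitotic promoters and the E2F motif alone in the Mcm promoters. Every printed promoter holds the motifs marked in it, which many promoters of the same lists do not, as counted below. The mitotic examples are Cdk1, chr20:19265193-19265292 on the plus strand, Cdc20, chr5:137255800-137255899 on the minus strand, and Prc1, a spindle midzone protein, chr1:143659411-143659480 on the plus strand.
Cdk1: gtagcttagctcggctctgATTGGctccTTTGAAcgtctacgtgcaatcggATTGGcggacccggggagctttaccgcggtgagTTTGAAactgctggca
Cdc20: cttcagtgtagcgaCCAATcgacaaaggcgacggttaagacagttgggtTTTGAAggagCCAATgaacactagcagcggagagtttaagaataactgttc
Prc1: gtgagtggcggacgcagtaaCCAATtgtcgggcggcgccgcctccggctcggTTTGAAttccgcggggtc
The replication examples are 4 subunits of the helicase, Mcm2 at chr4:122918095-122918154 and Mcm6 at chr13:42404463-42404512 on the minus strand, Mcm7 at chr12:22163199-22163258 on the minus strand, and Mcm5 at chr19:13488587-13488636 on the plus strand.
Mcm2: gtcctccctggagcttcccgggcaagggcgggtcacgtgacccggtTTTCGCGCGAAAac
Mcm5: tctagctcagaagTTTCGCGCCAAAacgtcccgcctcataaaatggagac
Mcm6: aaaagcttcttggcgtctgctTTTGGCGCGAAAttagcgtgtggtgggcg
Mcm7: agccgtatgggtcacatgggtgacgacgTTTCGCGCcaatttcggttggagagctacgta
Of the 37 mitotic genes 29 had a promoter sequence, and 13 of these (44.8%) held a CHR element against 12.4% of the 11733 promoters of tested genes. A CCAAT box was in 22 of 29 (75.9%) against 35.1%, and both were in 12 of 29 (41.4%) against 4.6%. The E2F motif was in 7 of 25 replication promoters (28%) against 1.02% of all, and in 1 of 29 mitotic promoters. Replication promoters also held the CCAAT box, in 14 of 25 (56%), and the CHR element, in 4 of 25 (16%). A match describes these letters in this window and is not evidence of binding. The printed genes rose by 2.24 ± 0.44 (Cdk1), 2.41 ± 0.34 (Cdc20), 1.80 ± 0.39 (Prc1), 1.35 ± 0.25 (Mcm2) and 1.58 ± 0.23 (Mcm7) on the log2 scale.

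Of 19 measured ribosomal protein genes 0 fell and 11 rose, by up to 0.92 for Rpl35 (3470, 3476 and 3322 against 6479.7, 5460.4 and 7673). Their median difference was 0.36, and 0.77 after quantile normalisation. Of 24 genes of serine synthesis and the amino acid response, 9 rose and 2 fell, and the 3 HCC arrays were alike in this list, with shifts of 0.70, 0.73 and 0.62. Psat1 and Phgdh, successive enzymes of serine synthesis from glycolytic carbon, led it. Phgdh was 74.1, 77.1 and 93.1 in cirrhosis and 1127, 614 and 589 in HCC (2.96 ± 0.23, adjusted p = 3.2e-05), and Psat1 was 112, 131 and 112 against 1991, 605 and 1258 (3.12 ± 0.37). Asns, asparagine synthetase, rose from 52.4, 70.8 and 62.8 to 413, 337 and 369 (2.32 ± 0.13, adjusted p = 1.4e-05), and Slc7a11, the cystine transporter, from 40.0, 42.8 and 45.3 to 379, 102 and 351 (2.14 ± 0.38). Control intensities were far above cirrhosis too, at 685 to 811 for Phgdh, 798 to 981 for Psat1 and 639 to 759 for Asns. The HCC arrays lay on both sides of the control range for Phgdh and Psat1 and below it for Asns. Mthfd2, a mitochondrial folate enzyme, showed the same order, with 143 to 224 in control, 34.8, 51.3 and 37.4 in cirrhosis and 219, 117 and 124 in HCC (1.53 ± 0.23). Atf4, the transcription factor of the amino acid response, did not pass (1154, 1227 and 1122 against 1299, 1207 and 1500, adjusted p = 0.29), nor did its targets Trib3 (adjusted p = 0.5) and Chac1 (adjusted p = 0.22). The core of the amino acid response element (TGATGNAA, both strands) was in 5 of 21 promoters of this list (23.8%) against 2.02% of all.

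Of the 20 measured genes of the axis that runs from pituitary growth hormone through its liver receptor to the insulin-like growth factors, 3 rose (15%) and 4 fell (20%), shares near those of all genes, and 6 rose without HCC replicate 2. Ghr, the growth hormone receptor, fell from 1539.5, 1532 and 1546 to 94.4, 437 and 208 (-2.80 ± 0.40, adjusted p = 0.00062). Igfals, which stabilises circulating IGF, fell from 802, 810.4 and 642 to 25.8, 314 and 25.9 (-3.20 ± 0.68), and Igf1 fell from 3917, 4120.2 and 4129 to 712, 3033 and 595 (-1.88 ± 0.48). Replicate 2 kept much more Igf1 and Igfals signal than the other HCC arrays. Igf1 did not pass in the fit of 6 arrays (adjusted p = 0.078). Socs2, a target and inhibitor of the receptor, fell from 48.3, 42.6 and 40.8 to 7.82, 22.0 and 10.6 (-1.05 ± 0.18). Igfbp5, an IGF-binding protein, rose from 26.7, 22.2 and 22.3 to 136, 98.7 and 196 (1.96 ± 0.20), as did Igf2r, the receptor that clears IGF2, from 319, 295 and 286 to 781, 712 and 420.3 (1.00 ± 0.23).

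Male-biased liver genes that depend on growth hormone pulses fell without exception among those measured. All 12 fell at least 2-fold, also in the fit of 6 arrays, and all 3 HCC arrays lay below all cirrhosis arrays for each, with a median difference of -3.28 and array shifts of -3.81, -2.41 and -3.57. Obp3, a urinary protein of the lipocalin family, had the largest fall of all named genes, from 4003, 1917 and 4611 to 20.8, 148 and 26.8 (-5.69 ± 0.61, adjusted p = 0.00013). Control intensities of Obp3 were only 9.92, 12.5 and 10.6, so the HCC arrays lay nearer to control than to cirrhosis. Cyp2c11, the main male-specific cytochrome P450 of rat liver, fell from 4511, 3907 and 4795 to 115, 536 and 217 (-4.10 ± 0.59), well below its control range of 1861 to 3551. Ust5r, an organic anion transporter, fell from 1014, 968 and 959.6 to 36.4, 38.6 and 55.3 (-4.08 ± 0.26), and Sult1e1, the oestrogen sulfotransferase, from 5302, 4713 and 5021 to 153, 816 and 179 (-4.06 ± 0.53). Female-biased genes did not mirror this, with 1 higher and 5 lower of 15 and a median of -0.73, and 8 lower without HCC replicate 2. Their largest falls were Hao2, a peroxisomal hydroxyacid oxidase (2911, 2816 and 2959.8 against 104, 157 and 298), and Cyp3a9 (489, 365 and 449 against 19.7, 97.3 and 24.2, with control at 15.9 to 17.2).

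Xenobiotic metabolism fell broadly. Of 26 measured cytochrome P450 and oxidase genes, 21 fell and 0 rose, with a median difference of -2.51, and 17 fell in the fit of 6 arrays. Cyp2e1, the ethanol- and nitrosamine-oxidising enzyme that activates DEN, fell from 6743, 5437 and 6167 to 306, 762 and 319 (-3.80 ± 0.28, adjusted p = 2.6e-05). Cyp2c7 fell from 6726, 6419.7 and 6049 to 236, 899 and 101 (-4.42 ± 0.83), and Cyp4a1, a fatty acid hydroxylase, from 1495, 1209 and 1129 to 37.2, 278 and 63.5 (-3.58 ± 0.50). The list shift was -3.06, -1.51 and -2.85 for HCC replicates 1, 2 and 3. Genes of the NRF2 response and phase II conjugation split, with 9 higher and 11 lower of 31 and a median of -0.06, which was 0.31 after quantile normalisation of the arrays. The count of rises was 5 without cirrhosis replicate 3. Gstm2, a glutathione transferase, fell from 3158, 3645 and 4027 to 264, 606 and 51.7 (-3.99 ± 0.61), Ugt2b1, a glucuronosyltransferase, from 1449, 1845 and 1433 to 87.4, 473 and 66.4 (-3.30 ± 0.52), and Aldh1l1, a folate dehydrogenase, from 3068, 3241 and 3426 to 472, 841 and 685 (-2.29 ± 0.16). The transporter Abcc4, a basolateral exporter of organic anions, rose from 47.9, 43.2 and 43.8 to 200.3, 139 and 120.2 (1.44 ± 0.17), and so did the related Abcc3 (0.89 ± 0.24). Abcc3 did not pass without cirrhosis replicate 3 (adjusted p = 0.058). Nfe2l2, which encodes NRF2, fell from 1192, 1280.5 and 1351 to 421, 492 and 236 (-1.75 ± 0.24), while its target Nqo1 did not pass (1327, 1417 and 1257 against 1614, 1000 and 1284, adjusted p = 0.9).

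**Figure D3:**
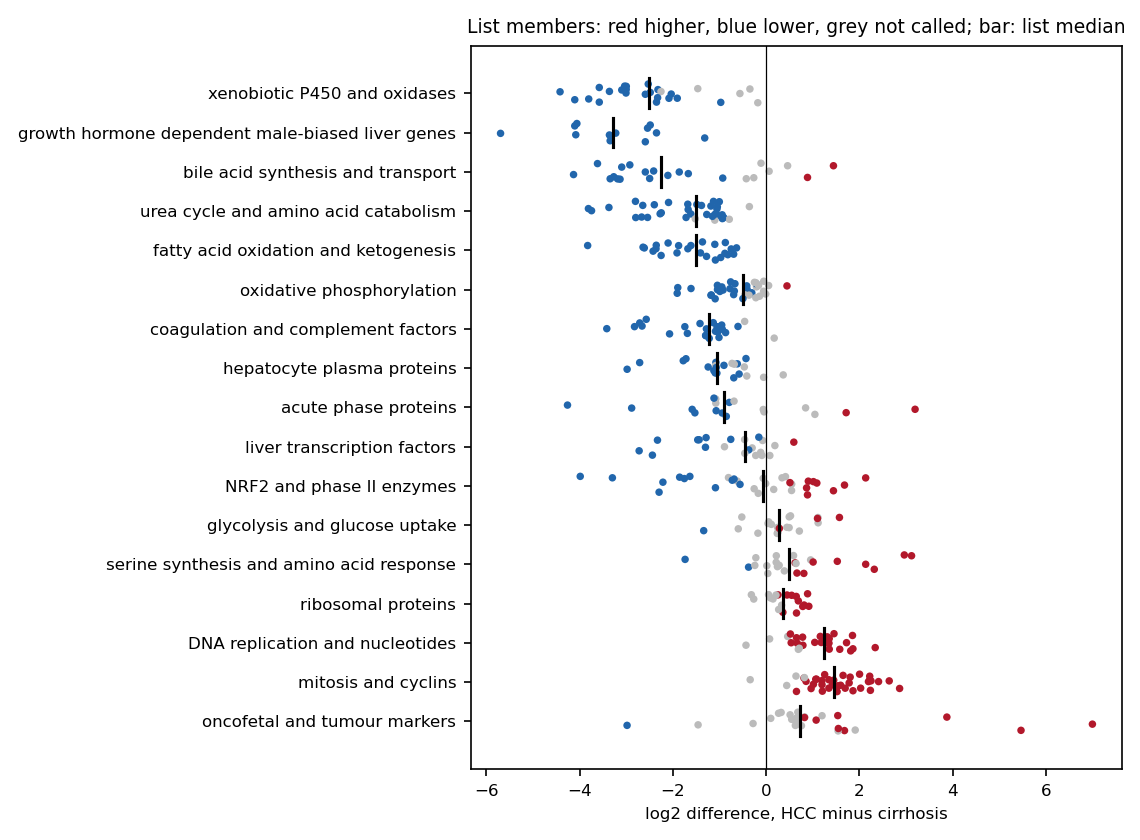
Log2 difference between HCC and cirrhosis (horizontal axis, log2 units) for each measured member of 17 gene lists (vertical axis). Red points rose, blue points fell, grey points passed no threshold, and black bars are list medians. All 24 genes of fatty acid oxidation and all 12 male-biased genes fell, and 33 of 37 mitotic genes rose.

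Bile acid synthesis and transport fell, with 15 of 22 genes lower, 2 higher and a median of -2.26. Cyp8b1, the sterol hydroxylase that sets the share of cholic acid, fell from 2022, 1671 and 2108 to 82.6, 133 and 76.8 (-4.13 ± 0.34, adjusted p = 4.1e-05). Cyp7a1, the rate-limiting enzyme, was 1446, 642 and 823 in cirrhosis and 31.2, 534 and 190.4 in HCC (-2.41 ± 0.71, adjusted p = 0.024). Replicate 2 lay just below the lowest of the cirrhosis arrays, which themselves varied. Cyp7a1 did not pass in the fit of 6 arrays (adjusted p = 0.11) or without cirrhosis replicate 1 (adjusted p = 0.087) or cirrhosis replicate 3 (adjusted p = 0.056). Slc10a1, the sodium-dependent bile acid importer, fell from 3340.4, 3297 and 3564 to 155, 1044 and 103 (-3.62 ± 0.69), and Abcb11, the canalicular bile salt export pump, from 1024, 1051 and 997 to 49.5, 455 and 67.6 (-2.92 ± 0.58). The members that rose were the basolateral exporters Abcc3 and Abcc4 given above.

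Mitochondrial and amino acid metabolism fell. All 24 measured genes of fatty acid oxidation and ketogenesis fell, 22 of them also in the fit of 6 arrays, with a median of -1.51 (-1.16 after quantile normalisation) and shifts of -1.63, -1.38 and -1.93. Acadm, the medium-chain acyl-CoA dehydrogenase, fell from 3071, 2785 and 2850.4 to 415, 627 and 376 (-2.61 ± 0.16, adjusted p = 1.7e-05). Ehhadh, the peroxisomal bifunctional enzyme, fell from 1399, 1308 and 1212 to 63.9, 139.6 and 48.8 (-3.83 ± 0.32), Eci2, an enoyl-CoA isomerase, from 1407, 1439 and 1362 to 176, 266 and 203 (-2.64 ± 0.13), and Cpt1a, the gate of mitochondrial fatty acid entry, from 1134, 1045 and 946 to 415, 221 and 217 (-1.88 ± 0.25). Of 34 genes of the urea cycle and amino acid catabolism 30 fell and 0 rose, with a median of -1.50. Gnmt, which consumes S-adenosylmethionine, fell from 1677, 1551 and 1657 to 49.5, 295 and 63.0 (-3.81 ± 0.49), Bhmt, which remethylates homocysteine, from 1609, 1537 and 1826 to 53.4, 296 and 178 (-3.37 ± 0.48), and Sds, serine dehydratase, from 778, 1014 and 726 to 31.2, 85.8 and 36.6 (-3.74 ± 0.69). In the urea cycle itself, Ass1 fell from 2674, 3615 and 3438 to 1084, 1332 and 776 (-1.61 ± 0.24) and Otc from 3072, 3224 and 2931 to 964, 2232 and 1267 (-1.13 ± 0.24), whereas Cps1, its first enzyme, was 6038, 6296 and 6182 against 3334, 5571 and 5991 and did not pass (adjusted p = 0.14).

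Oxidative phosphorylation genes fell by less, with 22 of 35 lower, 1 higher and a median of -0.50. Uqcrc2, a complex III core subunit, fell from 1456, 1462 and 1380.4 to 498, 397 and 256 (-1.91 ± 0.19), and Ndufb8 of complex I from 106, 112 and 101 to 33.7, 20.2 and 19.7 (-1.61 ± 0.13). The array shifts of -0.38, -0.61 and -0.89 stood in the order of the Gapdh 3′ to 5′ ratio of these arrays. This order was not particular to the list. It was also seen for macrophage markers (-0.44, -0.94 and -0.99), hypoxia targets (0.95, 0.20 and 0.15) and further lists. Other lists, such as mitosis and P450 genes, did not show it. The part of RNA quality in these lists was not tested. Quantile normalisation moved the median of the oxidative phosphorylation list to -0.23.

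Carbohydrate and lipid synthesis genes were mixed. Of 15 genes of gluconeogenesis, glycogen and fructose handling, 9 fell and 1 rose (median -1.25). Fbp1, fructose bisphosphatase, fell from 3950.2, 4386 and 4106 to 344, 995 and 470.4 (-2.89 ± 0.30), and Pck1, the gluconeogenic carboxykinase, from 5388, 4964 and 5115 to 684, 2834 and 663 (-2.22 ± 0.45). Of 20 glycolysis genes 3 rose and 1 fell (median 0.27), with 7 rises without HCC replicate 2, 1 without cirrhosis replicate 1 or 2, and 3 falls without HCC replicate 1. Aldoa, the muscle-type aldolase, rose from 777, 826 and 798 to 4251, 1548 and 2130.5 (1.57 ± 0.33), while Slc2a1, the glucose transporter GLUT1, was 59.4, 55.6 and 65.2 against 412, 78.7 and 94.1 and did not pass (adjusted p = 0.077). Both were highest on replicate 1, as was the list, whose shifts were 0.85, 0.05 and 0.02. Cholesterol synthesis had 5 lower and 0 higher of 19 genes, but 13 lower without HCC replicate 2 and 3 lower in the fit of 6 arrays or without HCC replicate 1, HCC replicate 3 or any cirrhosis array, and 8 without hepatitis replicate 2. Its shifts were -0.90, -0.13 and -1.58. Tm7sf2, a sterol reductase, fell from 993, 1005 and 1111 to 171, 445 and 133 (-2.17 ± 0.33). Fatty acid and triglyceride synthesis had 9 lower and 2 higher of 20 (4 lower without cirrhosis replicate 2), with the highest level on replicate 2. Thrsp, a lipogenic regulator, fell from 1545, 1836 and 2121 to 80.9, 698 and 60.4 (-3.40 ± 0.75), while Fasn, fatty acid synthase, was 758, 1064 and 894 against 803, 2116 and 1069 and did not pass (adjusted p = 0.4).

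Secreted hepatocyte proteins fell on HCC replicates 1 and 3 more than on replicate 2. Of 23 plasma proteins 15 fell and 0 rose (median -1.05, or -0.70 after quantile normalisation, shifts -1.18, -0.34 and -1.51), and 7 fell in the fit of 6 arrays. Serpina6, corticosteroid-binding globulin, fell from 1833, 1733 and 1874 to 386, 173 and 148 (-2.98 ± 0.37), and Vtn, vitronectin, from 6299.6, 6417 and 6493 to 1307, 4123 and 1185 (-1.78 ± 0.37). Apoa1, the main protein of high-density lipoprotein, was 5664, 5599 and 5341 against 6799, 9219 and 5812 and did not pass (adjusted p = 0.056). Coagulation and complement factors showed 23 of 25 lower and 0 higher (median -1.22, shifts -1.80, -0.51 and -2.02). That count was 9 in the fit of 6 arrays, and 13, 12 and 15 without cirrhosis replicate 1, 2 or 3. Mbl2, a mannose-binding lectin of complement, fell from 2459, 2407 and 2605 to 138, 691 and 102 (-3.42 ± 0.52), and C6, of the membrane attack complex, from 599, 693 and 597 to 58.0, 125 and 75.7 (-2.71 ± 0.39). Acute phase proteins went both ways, with 9 lower and 2 higher of 18. Crp, C-reactive protein, fell from 3434, 4051 and 3968 to 112, 664 and 75.6 (-4.26 ± 0.58), whereas A2m, the acute phase alpha-2-macroglobulin of rats, rose from 412, 537 and 333 to 4833, 4168 and 3112 (3.20 ± 0.49, adjusted p = 0.00087). Control intensities of A2m were 3369, 1232 and 1995, again above cirrhosis. Other plasma-type genes among the largest falls were Serpina3m, a serine protease inhibitor, from 1361, 1519 and 2204 to 45.6, 309 and 32.8 (-4.08 ± 0.58), and Amy1, an amylase, from 2747, 2568 and 2925 to 54.9, 827 and 68.7 (-4.01 ± 0.74). The enzymes Dhrs7l1 (1212, 866 and 1604 against 16.4, 43.0 and 16.8), Gstp3 (2777, 2388 and 2180.1 against 37.1, 325 and 50.4) and Hsd17b6 (3004, 3062 and 3072 against 115, 459 and 123) completed them.

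**Figure D4:**
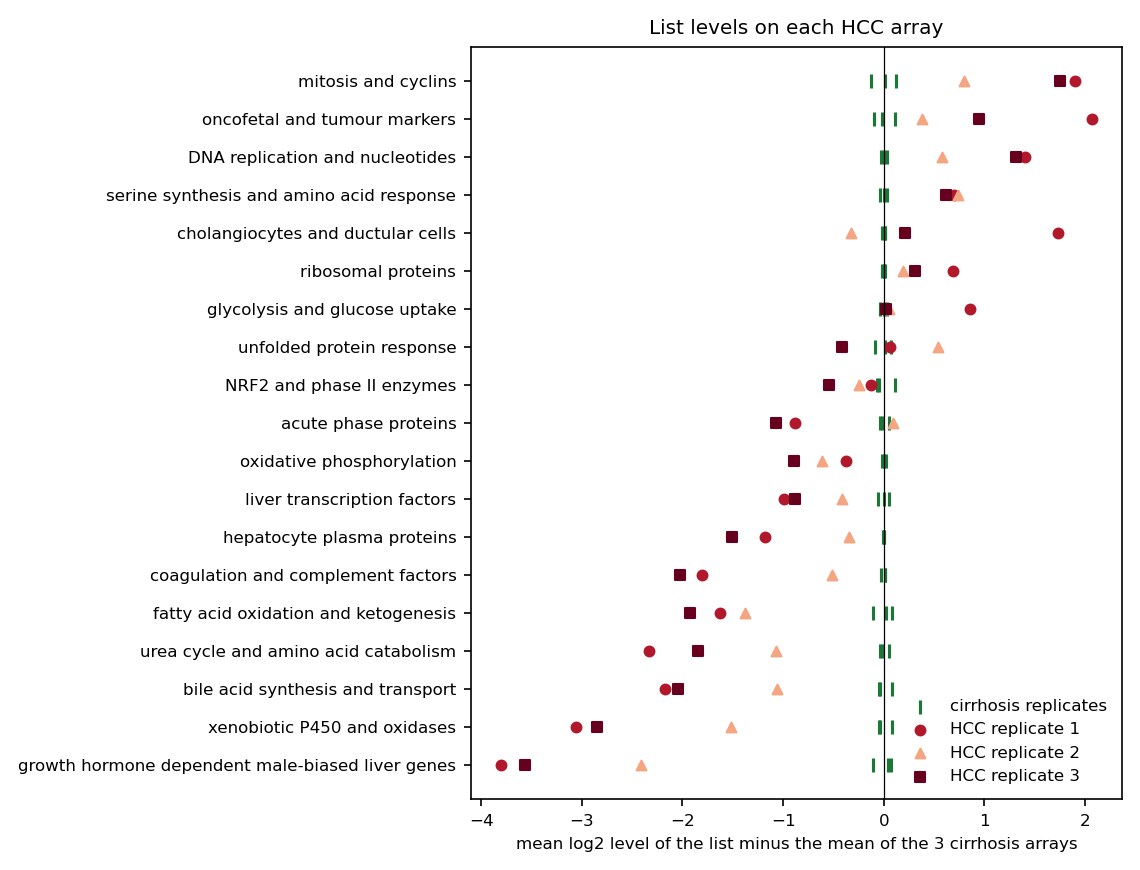
Mean log2 level of 19 gene lists on each HCC array, minus the mean of the 3 cirrhosis arrays (horizontal axis, log2 units). Green bars are the cirrhosis arrays, and red circles, light triangles and dark squares are HCC replicates 1, 2 and 3. Replicate 2 lies nearest to cirrhosis for mitosis (0.80 against 1.90 and 1.75) and P450 genes (-1.51 against -3.06 and -2.85), and the 3 arrays lie close together for serine synthesis.

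Liver transcription factors fell in part, with 10 of 21 lower, 1 higher and a median of -0.46. Onecut1, HNF6, fell from 604, 470.3 and 474 to 72.9, 115 and 28.3 (-2.72 ± 0.57), Nr0b2, the bile acid-induced repressor SHP, from 297, 361 and 294 to 33.4, 149 and 19.4 (-2.33 ± 0.58), and Foxa1 from 70.1, 86.3 and 70.5 to 7.73, 30.9 and 16.4 (-1.47 ± 0.24). The orphan receptor Esrrg fell from 192, 178 and 132 to 10.7, 33.9 and 12.2 (-2.44 ± 0.28), and Nr1i3, the xenobiotic receptor CAR, from 197, 196 and 139 to 38.8, 71.6 and 81.5 (-1.30 ± 0.23). The central regulators Hnf4a (1911, 2065 and 2302 against 1352, 2176 and 1649, adjusted p = 0.18) and Cebpa (602, 599 and 542 against 249.6, 562 and 200.2, adjusted p = 0.057) did not pass. Of 17 pericentral and Wnt target genes 10 fell and 3 rose (median -0.38, range -3.80 to 1.68), of which 6 fell and 1 rose at least 2-fold. Besides Cyp2e1 the falls included Cyp1a2, which metabolises arylamines, from 2260.5, 1808 and 2181 to 59.1, 421 and 148 (-3.58 ± 0.57), Oat, ornithine aminotransferase, from 1679, 1366 and 1641 to 254, 297 and 121 (-2.80 ± 0.38), and Lect2, a hepatokine and Wnt target, from 1181, 1031 and 1125 to 101, 214 and 88.3 (-3.00 ± 0.25). Glul, glutamine synthetase of the pericentral layer, was 1003, 794 and 792 against 835, 609.6 and 550.3 and did not pass (adjusted p = 0.14).

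Many markers of liver sinusoids and resident macrophages fell. Of 16 sinusoidal endothelial markers 12 fell and 1 rose (median -1.15, shifts -1.30, -0.72 and -1.14), with 9 lower and 0 higher in the fit of 6 arrays. Stab2, a scavenger receptor of sinusoidal endothelium, fell from 312, 281 and 257 to 15.2, 94.5 and 25.2 (-2.52 ± 0.41), Fcgr2b, its IgG receptor, from 763, 766 and 764 to 190.4, 284 and 144 (-1.86 ± 0.21), and Kdr, a VEGF receptor, from 609, 609 and 536 to 106, 228 and 112 (-1.94 ± 0.29). The general endothelial adhesion molecule Pecam1 rose slightly, from 86.8, 88.1 and 73.5 to 92.9, 130.4 and 119 (0.39 ± 0.12). Pecam1 did not pass in the fit of 6 arrays (adjusted p = 0.088) or without cirrhosis replicate 1 (adjusted p = 0.051), cirrhosis replicate 3 (adjusted p = 0.1), HCC replicate 2 (adjusted p = 0.073) or HCC replicate 3 (adjusted p = 0.077). Vascular endothelial and angiogenesis genes had 4 higher and 4 lower of 21, a called share of 38.1% against 37% of all genes. None of them was higher in the fit of 6 arrays, 1 was higher without cirrhosis replicate 1, and 2 were lower without HCC replicate 3 or any single control or cirrhosis array. Of 22 macrophage and Kupffer cell markers 9 fell and 0 rose (median -0.66). Clec4f, a lectin that marks Kupffer cells in rodents, fell from 1892, 1789 and 1915 to 139, 544 and 318 (-2.62 ± 0.37), Cd5l, a macrophage survival factor, from 1698, 1749 and 1639.8 to 170.2, 567 and 369.5 (-2.30 ± 0.42), and C1qb, a chain of complement C1q, from 819, 753 and 767 to 309, 116 and 55.1 (-2.45 ± 0.49). The macrophage genes Cd68 (439, 391 and 419 against 469.9, 230.4 and 351, adjusted p = 0.54) and Gpnmb (600.2, 539 and 539.8 against 1565, 350.1 and 395, adjusted p = 0.92) did not pass.

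**Figure D5:**
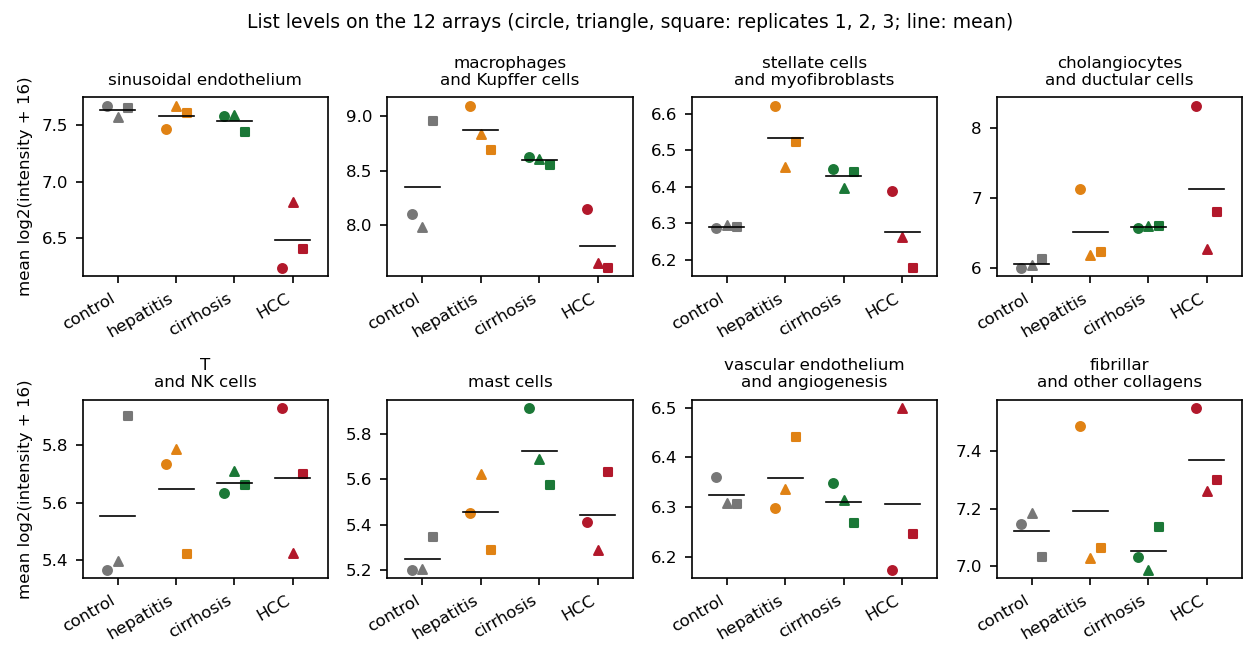
Mean log2(intensity + 16) over each of 8 cell type or matrix lists (vertical axes, each panel with its own range) on the 12 arrays by group. Circles, triangles and squares are replicates 1, 2 and 3, and lines are group means. The 3 HCC arrays lie below all others for sinusoidal endothelium, and cholangiocyte markers are high on HCC replicate 1 (1.73 above the cirrhosis mean) and not on replicate 2 (-0.32).

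Matrix and stellate cell genes were called about as often as all genes (37%), at 40% for collagens, 39.4% for other matrix genes and 34.8% for stellate cell markers. Of 20 collagen genes 6 rose and 2 fell (median 0.27). Col1a1, a chain of type I collagen, rose from 136, 136 and 181 to 818, 478 and 608 (1.94 ± 0.35, adjusted p = 0.0019), but its partner chain Col1a2 (438, 438 and 595 against 696, 360.2 and 299.7, adjusted p = 0.72) and Col3a1 (1255, 1266 and 1520.4 against 1704, 1308 and 1445, adjusted p = 0.63) did not pass. The basement membrane chains Col4a1 and Col4a2 rose, from 193, 169 and 168 to 400, 302 and 371 (0.95 ± 0.20) and from 171, 184 and 186 to 434, 381 and 637 (1.32 ± 0.18), with Hspg2, the proteoglycan perlecan, from 32.0, 30.0 and 35.1 to 112, 86.5 and 109.9 (1.29 ± 0.10). Collagen genes did not set the cirrhosis arrays apart from control, with mean log2 levels of 6.99 to 7.13 against 7.03 to 7.19. Col1a1 was 203, 321 and 187 in control, above all 3 cirrhosis arrays. Among 33 other matrix genes 10 rose and 3 fell (median 0.14, or 0.30 after quantile normalisation), and the count of rises was 5 and 6 without cirrhosis replicate 2 or 3. Lum, the collagen-binding proteoglycan lumican, rose from 29.1, 30.8 and 51.6 to 829.6, 127 and 242 (2.59 ± 0.57). Of 22 matrix proteases and inhibitors 2 rose and 0 fell (4 rises without HCC replicate 2), with Plat, tissue plasminogen activator, from 63.0, 65.2 and 62.4 to 494, 217 and 195 (1.88 ± 0.38). Of 23 stellate cell and myofibroblast markers 3 rose and 5 fell (median -0.03). Lrat, the retinol-storing enzyme of quiescent stellate cells, fell from 118, 104 and 104 to 14.2, 9.71 and 9.28 (-2.21 ± 0.31), and Ecm1, a secreted matrix protein, from 436, 424 and 428 to 152, 157 and 123 (-1.48 ± 0.13). Acta2, smooth muscle actin of activated stellate cells, rose from 26.2, 23.4 and 29.7 to 63.5, 34.7 and 42.4 (0.54 ± 0.15, adjusted p = 0.016). Acta2 did not pass in the fit of 6 arrays (adjusted p = 0.077) or without cirrhosis replicate 2 (adjusted p = 0.061).

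Markers of other cell types that liver tissue could hold were also counted. Cholangiocyte and ductular markers had 2 higher and 1 lower of 16, with shifts of 1.73, -0.32 and 0.21, 5 higher without HCC replicate 2 and 0 higher without HCC replicate 3 or any single cirrhosis array. Krt7, Epcam and Cldn4 were all highest on HCC replicate 1, at 259, 2631 and 429, against at most 15.2, 462 and 18.9 in cirrhosis, and none passed. T and NK cell genes had 4 higher and 2 lower of 20, but 0 higher and 3 lower in the fit of 6 arrays, 8 higher without HCC replicate 2, 2 higher without cirrhosis replicate 1 or 2, and 4 lower without control replicate 3. Ccl5, a T cell chemokine, fell from 351, 398 and 311 to 167, 68.4 and 77.3 (-1.70 ± 0.45), and Cd3g, a chain of the T cell receptor complex, rose from 28.0, 29.1 and 34.0 to 128, 44.2 and 117 (1.18 ± 0.30). Cd3g did not pass in the fit of 6 arrays (adjusted p = 0.057). Mast cell genes had 1 higher (Hdc) and 5 lower of 12 (3 lower in the fit of 6 arrays), and the protease Mcpt1 fell from 233, 141 and 146 to 53.7, 52.2 and 50.8 (-1.44 ± 0.27). Few or none passed among B and plasma cell markers (0 higher, 1 lower of 8), neutrophil markers (0 and 1 of 10), erythroid and blood genes (0 and 1 of 9), MHC class II genes (0 and 0 of 9), skeletal muscle genes (0 and 0 of 14) and pancreatic acinar genes (1 and 1 of 13). Single control arrays stood apart in 2 of these lists. Mean log2 levels of MHC class II were 7.722, 7.552 and 9.853 on control replicates 1 to 3, and those of skeletal muscle 5.22, 7.465 and 5.332. Without control replicate 3, 1 MHC class II gene was higher and 1 lower. In the 12 measured adipocyte genes 6 fell, led by Car3, a carbonic anhydrase also abundant in male rat liver, from 5254, 4477 and 4628 to 143, 435 and 470.3 (-3.87 ± 0.56). The mean log2 levels of the cholangiocyte list ran from 6.57 to 6.61 in cirrhosis and from 6.27 to 8.32 in HCC, and those of the macrophage list from 8.55 to 8.63 and from 7.61 to 8.15. The part of tissue makeup in the results above was not tested.

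Several signalling and stress lists were called no more often than all genes (37%), at 32.4% for cytokines and chemokines, 29.6% for the interferon response, 27.3% for hypoxia targets, 22.7% for the unfolded protein response and 28.6% for the proteasome. Of 34 cytokines and chemokines 8 fell and 3 rose, with 1 rise without cirrhosis replicate 3 or in the fit of 6 arrays and 5 without HCC replicate 2. Cxcl12, the chemokine of liver stroma and endothelium, fell from 1915, 1531 and 1731 to 80.1, 237 and 97.3 (-3.63 ± 0.36, adjusted p = 9.5e-05), and Ccl6, a macrophage chemokine, from 2104, 1942 and 1993 to 388, 431 and 308 (-2.38 ± 0.31). Of 27 TGF beta and BMP pathway genes 7 fell and 4 rose (4 falls without cirrhosis replicate 2), a called share of 40.7% against 37% of all genes. At least 2-fold, 4 fell and 2 rose, and the differences in the list ran from -2.73 to 1.82. Id3 and Id2, inhibitors of differentiation induced by BMP, fell from 417, 424 and 408 to 78.4, 49.8 and 28.8 (-2.73 ± 0.22) and from 1451, 1721 and 1353 to 561, 541 and 298 (-1.70 ± 0.24), and the ligand Bmp2 from 289, 242 and 223 to 84.2, 87.3 and 63.1 (-1.51 ± 0.17). Hamp, the iron hormone hepcidin and a BMP target, was 4706, 4084 and 3919 against 2294, 1731 and 3185 (-0.85 ± 0.24). Hamp did not pass without cirrhosis replicate 1 (adjusted p = 0.067). Of 14 iron genes 7 fell and 2 rose (4 falls without cirrhosis replicate 1 or in the fit of 6 arrays), and Tfrc, the transferrin receptor, rose from 461, 488 and 454 to 1586, 708 and 1149 (1.19 ± 0.23).

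Immediate early genes had 10 higher and 1 lower of 23. Myc rose from 209, 279 and 176 to 1090.5, 592 and 609 (1.68 ± 0.26, adjusted p = 0.00086) and Klf6 from 312, 329.7 and 258 to 939.8, 574 and 752 (1.27 ± 0.20). Of 22 hypoxia targets 5 rose and 1 fell, with 8 rises without HCC replicate 2, and 3 and 2 without cirrhosis replicate 2 or 3. Anxa2, an actin-binding annexin, rose from 479, 549 and 573 to 3718, 1167 and 1326 (1.72 ± 0.43), and the list shifts were 0.95, 0.20 and 0.15. Of 22 unfolded protein response genes 4 rose and 1 fell, with 6 falls without HCC replicate 2, 3 falls without HCC replicate 1, 7 rises without HCC replicate 3 and 2 rises in the fit of 6 arrays. Replicate 2 was highest in this list, with shifts of 0.07, 0.54 and -0.41, and Hsp90b1, a chaperone of the endoplasmic reticulum, rose from 2316, 2418 and 2221 to 3789.6, 5859 and 3373 (0.86 ± 0.17). Of 27 interferon response genes 2 rose and 6 fell, the falls numbering 2 without any cirrhosis array or HCC replicate 3 and 3 without HCC replicate 1. Isg15, an interferon-induced ubiquitin-like protein, rose from 316, 309.6 and 267 to 547, 684 and 705 (1.07 ± 0.13). Of 32 adhesion, tight junction and cytoskeleton genes 10 rose and 4 fell, with 5 and 6 rises without cirrhosis replicate 1 or 3. Gjb1, the hepatocyte gap junction protein of the connexin family, fell from 919.8, 914 and 856 to 155, 196 and 70.6 (-2.64 ± 0.27), and S100a11, a calcium-binding protein, rose from 496, 547 and 585 to 4852, 1186 and 2137 (2.06 ± 0.51). Receptor tyrosine kinases and ligands had 2 higher and 9 lower of 24, and 5 lower without cirrhosis replicate 1 or HCC replicate 3 and in the fit of 6 arrays. Egf fell from 148, 139.8 and 167 to 29.2, 79.6 and 41.9 (-1.41 ± 0.26). Proteasome genes had 3 higher and 5 lower of 28, and 9 higher without HCC replicate 2. The falls numbered 14 without HCC replicate 1, 3 without cirrhosis replicate 3, and 1 in the fit of 6 arrays or without cirrhosis replicate 1 or 2 or HCC replicate 2 or 3.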

How the data were processed

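RNA of 12 rat liver samples, in 4 labelled groups of 3, was isolated with TRIzol, labelled with biotin and hybridised to Affymetrix Rat 230 2.0 arrays, per the labels' protocols. Each deposited value is an intensity on a linear scale. MAS5 and RMA are named in the submitters' processing notes without role or order. The authors' normalisation is otherwise not stated, and no further scaling was applied. All 12 columns were used and 0 were left out. An array gives no count of molecules, and the number of arrays limits the precision. Of 31099 probe sets, 57 were array controls, 20826 had 1 gene in the platform annotation, 436 several and 9780 none. The brightest probe set on average represented each of the 14217 genes, of which 4525 had several. No named gene had a probe set past the threshold in the opposite direction.

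Intensities were analysed as log2(value + 16), which understates changes of dim genes. A linear model with 1 mean per group was fitted to the 12 arrays with limma 3.58.1 (R 4.3.3, lmFit and eBayes), the contrast was HCC minus cirrhosis, and p-values were Benjamini-Hochberg adjusted over all genes, with 0.05 as threshold. The script was tested on simulated data with planted differences. The check required that these were recovered and set no limit on calls among unchanged genes. Promoter motifs were counted with Python 3.11.15 in RefSeq sequences of GRCr8 matched by symbol. The motifs called DR1 and HNF1 were searched in the same way in lists that fell. DR1 was in 0 of 21 promoters of fatty acid oxidation genes and 0 of 34 of peroxisomal genes, against 0.0341% of all. HNF1 was in 1 of 18 plasma protein promoters (5.56%) against 0.281% of all. For coagulation and complement factors HNF1 was in 2 of 20 promoters (10%).

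The stages, the gene lists and the motifs were chosen with earlier results of these data known. The genes chosen for naming, not all of which are described, were the 15 largest rises and falls among genes past the threshold whose groups did not overlap, up to 4 members per list by size of change, and 18 fixed markers. These further genes were chosen after their values were seen: Abcb11, Abcc3, Abcc4, Alb, Apoa1, Ass1, Atf4, Cat, Ccnd1, Cd68, Cdk1, Cdkn2b, Chac1, Cldn4, Col1a2, Col3a1, Col4a1, Cps1, Cpt1a, Dlk1, Epcam, Fasn, Fbl, Glul, Golm1, Gpnmb, Igf1, Igf2r, Krt7, Mcm2, Mcm7, Mdm2, Mest, Mthfd2, Ncl, Nfe2l2, Nqo1, Nr1i3, Otc, Pecam1, Prc1, Rb1, Sall4, Slc2a1, Socs2 and Trib3. Alternatives were another pseudocount (1 or 64), the dimmest 30% of genes left out, the mean of a gene's probe sets, quantile or 75th percentile scaling, the 6 arrays alone, array weights, trend and robust eBayes, a replicate block, and each array left out.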

Additional observations from a re-analysis of the deposited data

How the results depend on the processing

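In every alternative tried the counts stayed within 1.5 times the main ones, except 2. The fit of the 6 arrays alone called 1765 higher genes instead of 2754, and log2(value + 64) left 319 genes at least 2-fold higher instead of 700. Leaving out 1 array gave 2085 to 3353 higher and 1944 to 2830 lower genes, with 550 to 995 and 749 to 1168 at least 2-fold. Scaling to the 75th percentile made higher genes 44.1% of those called, and the main fit 52.3%. Of the 234 genes past the threshold that were chosen for naming, not all of which are described, 185 also passed in the 6 arrays alone, 211 with array weights, and 191 in all 12 fits with 1 array left out. Of the 49 that did not pass in the 6 arrays alone, those named in the text are Acta2, Cd3g, Cdkn1c, Cyp7a1, Golm1, Hdc, Igf1, Pecam1, Saa3, Sall4 and Scd. None of the chosen genes reversed, and 8 genes were called in the opposite direction, with the mean of all probe sets. Same-numbered cirrhosis and HCC arrays did not deviate together (r of -0.0174, 0.00154 and 0.0204 over genes). With 3 arrays per group and the larger spread in HCC, this cannot tell whether the numbers pair the samples. With the number as a replicate block 2688 genes were higher and 2436 lower, 704 and 965 at least 2-fold. Dim genes are limited by background, as 33.9% to 35.8% of intensities lay under 16.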

Other observations

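The gene lists below were drawn up after the values had been seen, and the lists above with earlier results of these data known. The counts of the lists below describe these arrays and support nothing, and those of the lists above are not independent of these data. Of 42 genes of ribosome biogenesis and the nucleolus 28 were higher and 1 lower (3 lower without HCC replicate 1), with a median difference of 0.72 and shifts from the cirrhosis mean of 0.89, 0.36 and 0.88 on HCC replicates 1, 2 and 3. Nop56, a core protein of box C/D particles that methylate ribosomal RNA, rose from 359.9, 361 and 379.8 to 1820.2, 1391 and 3079 (2.38 ± 0.24, limma adjusted p = 0.0001). Dkc1, the pseudouridine synthase of box H/ACA particles, rose from 207, 220.3 and 193 to 690.1, 579 and 976 (1.75 ± 0.17), and Ncl, nucleolin, from 1008, 993 and 929 to 2643, 1447 and 2112 (1.03 ± 0.17). Fbl, the methyltransferase fibrillarin, was 295, 279 and 266 against 621, 215 and 301 and did not pass (adjusted p = 0.49). The E-box CACGTG was in 6 of 39 promoters of this list (15.4%) against 7.82% of all.

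Of 24 imprinted genes 8 were higher and 2 lower. Besides Igf2, H19 and Meg3 they included Cdkn1c, the CDK inhibitor p57, at 43.6, 49.4 and 39.3 against 509, 71.9 and 314 (2.05 ± 0.52). Dlk1, the paternally expressed neighbour of Meg3, was 11.8, 10.1 and 14.9 against 57.3, 17.7 and 19.7 and did not pass (adjusted p = 0.21), and neither did Mest (adjusted p = 0.97). Of 20 CDK inhibitors, pocket proteins and E2F factors 8 were higher and 2 lower. E2f8, a repressor of E2F targets, rose from 13.1, 9.59 and 11.9 to 57.4, 25.5 and 101 (1.37 ± 0.31), and Rb1, the retinoblastoma protein, fell slightly, from 104, 104 and 101 to 75.3, 77.4 and 90.2 (-0.30 ± 0.09). Cdkn1c did not pass in the fit of 6 arrays (adjusted p = 0.072). Rb1 did not pass without cirrhosis replicate 1 (adjusted p = 0.073), cirrhosis replicate 2 (adjusted p = 0.074), cirrhosis replicate 3 (adjusted p = 0.059), HCC replicate 1 (adjusted p = 0.073) or HCC replicate 2 (adjusted p = 0.059).

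Peroxisomal genes were lower for 30 of 37 and higher for 0, with a median of -1.01, or -0.76 after quantile normalisation. Amacr, a racemase of branched fatty and bile acid oxidation, fell from 2865, 2093 and 1934 to 202, 437 and 176 (-3.10 ± 0.30), and Acox2, the branched-chain acyl-CoA oxidase, from 1523, 1476 and 1274 to 82.1, 286 and 96.1 (-3.27 ± 0.36), whereas Cat, catalase, was 5185, 5329.5 and 5308 against 3595, 4897 and 4819 and did not pass (adjusted p = 0.094). Of 23 genes of branched-chain amino acid and propionate catabolism 18 were lower and 0 higher (median -1.23), and Ivd, isovaleryl-CoA dehydrogenase, fell from 828, 800.2 and 724 to 119.7, 163 and 95.8 (-2.52 ± 0.15, adjusted p = 1.6e-05). Conjugating enzymes and carboxylesterases were lower for 22 of 29 and higher for 0 (median -1.22), with Sult1c3, a sulfotransferase, at 4317, 3729 and 4069 against 262, 347 and 358 (-3.59 ± 0.33). Apolipoproteins and lipoprotein assembly genes were lower for 11 of 25 and higher for 0 (median -0.77, or -0.50 after quantile normalisation). Apoa5, which promotes triglyceride clearance, fell from 1743, 1618 and 1519 to 53.5, 268 and 35.4 (-4.03 ± 0.51), and Lipc, hepatic lipase, from 1892, 1799.5 and 1921 to 216, 509 and 201 (-2.66 ± 0.30).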
